A study of Homo sapiens with 8 samples.

Results

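The results below concern 9 genes of ubiquitin supply, of the p62 pathway and of autophagy in human skin fibroblasts: UBB, SQSTM1 (p62), GABARAPL1, MAP1LC3B, WIPI1, ULK1, TFEB, BECN1 and OPTN. They were picked by gene symbol from a table of 24598 genes, and all 9 were present and passed the filter on low values. The cells were CCD-1077Sk, a fibroblast line from normal skin, used beyond passage 8, grown in high-glucose DMEM with 10% fetal bovine serum and collected 6 h after treatment. The 4 groups had 2 libraries each: TGFB1 with 500 nM celastrol, celastrol at 500 nM with BSA and citric acid, TGFB1 with DMSO, and a control that received BSA, citric acid and DMSO. TGFB1 is the growth factor that pushes fibroblasts to make matrix, and celastrol is a triterpenoid made by a medicinal vine. The design asks how celastrol acts on gene expression mediated by TGFB1, and its title places this in systemic sclerosis. All groups share 1 cell line, and no source used here gives the dose of TGFB1. The labels leave unsaid whether a group's libraries are separate cultures, and p-values then cover only library-to-library spread, possibly technical.

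Autophagy is the route by which cells enclose cytoplasm in a double membrane and deliver it to lysosomes. The ULK1 kinase starts the process, a lipid kinase complex built on beclin 1 (BECN1) marks the membrane, WIPI proteins read that mark, and small ubiquitin-like proteins of the ATG8 family, among them MAP1LC3B (LC3B) and GABARAPL1, are attached to the growing membrane. Receptors such as p62 and optineurin bind ubiquitin on cargo with one part and ATG8 proteins with another, so the supply of ubiquitin, to which UBB contributes, and the receptors meet at the cargo. TFEB is a transcription factor that turns on autophagy and lysosomal genes. The RNA level of these genes is not a measure of autophagic flux.

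Values are normalized reads: estimated reads per gene divided by a size factor for each library, not scaled by gene length. The libraries held between 20716613 and 42518153 estimated reads, and 3 reads, the limit that a count of 0 allows, were worth 1.8 to 4.24 normalized reads, which covers counting error only. Of 10 fibroblast markers all were present, and they summed to 381771 to 444429 normalized reads in TGFB1 with celastrol and 400604 to 475528 in celastrol, against 554797 to 674411 in TGFB1 and 471340.2 to 495880.2 in control. The marker sum of the cells themselves was thus lower in TGFB1 with celastrol than in TGFB1 without overlap. The markers did not move together. COL1A1 (108573 and 125115 against 223348 and 284508), COL1A2, COL3A1, PDGFRB and FAP were lower there without overlap. PDGFRA (12906 and 14386 against 7862 and 8885) and LUM were higher without overlap, and DCN, THY1 and VIM overlapped. The part of these markers in the results was not tested. A pair of keratinocyte markers summed to 880.5 to 1065, and the defining KRT5, KRT14 and KRT1 were not analysed here. KRT10 made up nearly all of that sum and overlapped between libraries with and without celastrol. CDH1 was low but higher in every celastrol library, at 3.30 to 13.9 against 0 to 1.80. Of 5 endothelial markers, 3 summed to 280 to 357 in TGFB1 with celastrol and 269.6 to 283 in celastrol, against 18.3 to 31.1 in TGFB1 and 19.8 to 32.5 in control. A pair of melanocyte markers (2 of 4) summed to 95.7 to 122 in TGFB1 with celastrol and 105 to 134 in celastrol, against 11.1 to 14.1 in TGFB1 and 8.76 to 11.4 in control. For 4 of 5 immune markers the sums were 382 to 529.5 in TGFB1 with celastrol and 399 to 492 in celastrol, against 312 to 324 in TGFB1 and 249 to 370.4 in control. CDH5, CLDN5, TYR, DCT and CD3E were not analysed here. The endothelial, melanocyte and immune sums were higher in every celastrol library than in any other, but single markers differed. MLANA carried the melanocyte rise, at 84.8 to 124.4 with celastrol against 0 to 1.23 without. PMEL overlapped, at 9.28 to 20.6 against 8.76 to 14.1. PECAM1, VWF, PTPRC and CD14 were higher in every celastrol library, while KDR, CD68 and CD79A overlapped. The part of these markers in the results was not tested. In bulk RNA a change in the mix of cells cannot be told apart from a change in RNA per cell.

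The printed promoters are those of UBB, GABARAPL1 and MAP1LC3B, whose RNA was higher with celastrol both with and without TGFB1. TFEB RNA was higher in both settings too, but its windows, which held no searched motif, are not printed. The promoter of ULK1, whose celastrol difference had opposite signs in these settings, is also printed. The printed promoters show the sequence around a RefSeq start. Each runs from 250 bases before to 50 bases after the RefSeq start, 5′ to 3′ on the gene's own strand, from build GRCh38.p14, and all 4 genes lie on the plus strand. The windows are chr17:16381091-16381390 (UBB), chr12:10212627-10212926 (GABARAPL1), chr16:87392086-87392385 (MAP1LC3B) and chr12:131894372-131894671 (ULK1). Those of UBB, GABARAPL1 and MAP1LC3B lie inside the gene spans given below, which begin further upstream, so sequence before those spans was not searched. Capitals mark a match to a searched motif.
UBB: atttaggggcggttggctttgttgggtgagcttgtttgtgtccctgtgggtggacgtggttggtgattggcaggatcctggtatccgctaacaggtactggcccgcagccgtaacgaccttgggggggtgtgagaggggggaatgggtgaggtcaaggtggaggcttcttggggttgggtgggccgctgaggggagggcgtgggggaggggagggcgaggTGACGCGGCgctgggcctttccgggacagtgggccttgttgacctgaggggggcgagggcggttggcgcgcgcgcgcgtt
GABARAPL1: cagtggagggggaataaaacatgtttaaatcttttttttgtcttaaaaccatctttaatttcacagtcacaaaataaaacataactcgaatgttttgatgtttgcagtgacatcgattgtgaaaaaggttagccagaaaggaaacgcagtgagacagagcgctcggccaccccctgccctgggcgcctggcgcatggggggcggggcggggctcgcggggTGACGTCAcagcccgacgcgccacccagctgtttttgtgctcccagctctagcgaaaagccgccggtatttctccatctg
MAP1LC3B: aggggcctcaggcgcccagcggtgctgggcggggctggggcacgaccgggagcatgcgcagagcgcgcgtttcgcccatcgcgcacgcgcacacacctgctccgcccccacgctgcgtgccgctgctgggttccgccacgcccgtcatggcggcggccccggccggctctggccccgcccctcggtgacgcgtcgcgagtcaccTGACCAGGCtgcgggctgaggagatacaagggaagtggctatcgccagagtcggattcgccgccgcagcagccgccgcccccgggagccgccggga
ULK1: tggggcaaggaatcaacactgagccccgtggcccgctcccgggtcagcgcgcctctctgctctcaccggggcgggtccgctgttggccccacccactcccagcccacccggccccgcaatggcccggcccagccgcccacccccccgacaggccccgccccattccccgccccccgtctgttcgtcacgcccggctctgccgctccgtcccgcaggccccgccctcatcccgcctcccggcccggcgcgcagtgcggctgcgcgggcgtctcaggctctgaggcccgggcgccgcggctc

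All 9 genes matched the RefSeq promoter table, with 15 windows among them, and each was searched on both strands. The capitals in GABARAPL1 are a cAMP response element (TGACGTCA), the site bound by CREB and ATF family factors, at position -30 from the start, and 1.85% of 35116 human promoters held one. Those in UBB, at -30, and in MAP1LC3B, at -46, match the core of the antioxidant response element (TGACNNNGC), which 13.35% of promoters held. The second UBB window overlaps the printed one and holds the same match. No other searched motif occurred in the 15 windows. These were heat shock elements, in which GAA and TTC units alternate with NN between them (3 units, in 0.49% of all promoters, or 2 units, in 13.49%, the longer containing the shorter), the CLEAR element TCACGTGA (0.98%), the E-box CACGTG that lies inside it (7.26%), the AP-1 site TGANTCA (7.71%), the ATF4 site TGATGCAA (0.87%) and the SMAD palindrome GTCTAGAC (0.2%). GC content of the printed windows was 66.0%, 51.7%, 75.7% and 78.3% in the order shown, against a median of 58.7% over all promoters.

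With celastrol, the transcripts of UBB, of the ATG8 genes MAP1LC3B and GABARAPL1 and of TFEB were higher, those of BECN1 and WIPI1 were lower, and that of ULK1 was lower with TGFB1 present and higher without it. UBB, GABARAPL1, MAP1LC3B and TFEB rose 1.49- to 1.65-fold when TGFB1 was present and 1.76- to 2.14-fold when it was absent. In TGFB1 with celastrol against TGFB1, all 9 genes passed the test, 5 higher (UBB, SQSTM1, GABARAPL1, MAP1LC3B and TFEB) and 4 lower (WIPI1, ULK1, BECN1 and OPTN). The background was broad: 63.4% of the 22866 genes tested were called, 37.5% higher and 25.9% lower. Relative to control, celastrol gave 5 genes higher (UBB, GABARAPL1, MAP1LC3B, ULK1 and TFEB) and 2 lower (WIPI1 and BECN1), where 55.1% of all genes were called, 33.8% higher and 21.3% lower. TGFB1 against control called 2, ULK1 and GABARAPL1, both higher, where 23.5% of all genes were called, 12.8% higher and 10.6% lower. The median log2 change of the 9 was 0.25 in the first comparison, 0.43 in the second and 0.13 in that of TGFB1 with control, beside 0.12, 0.083 and 0.00 over all genes tested. TGFB1 against control shares the TGFB1 libraries with the first comparison and the control libraries with the second.

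**Figure D1:**
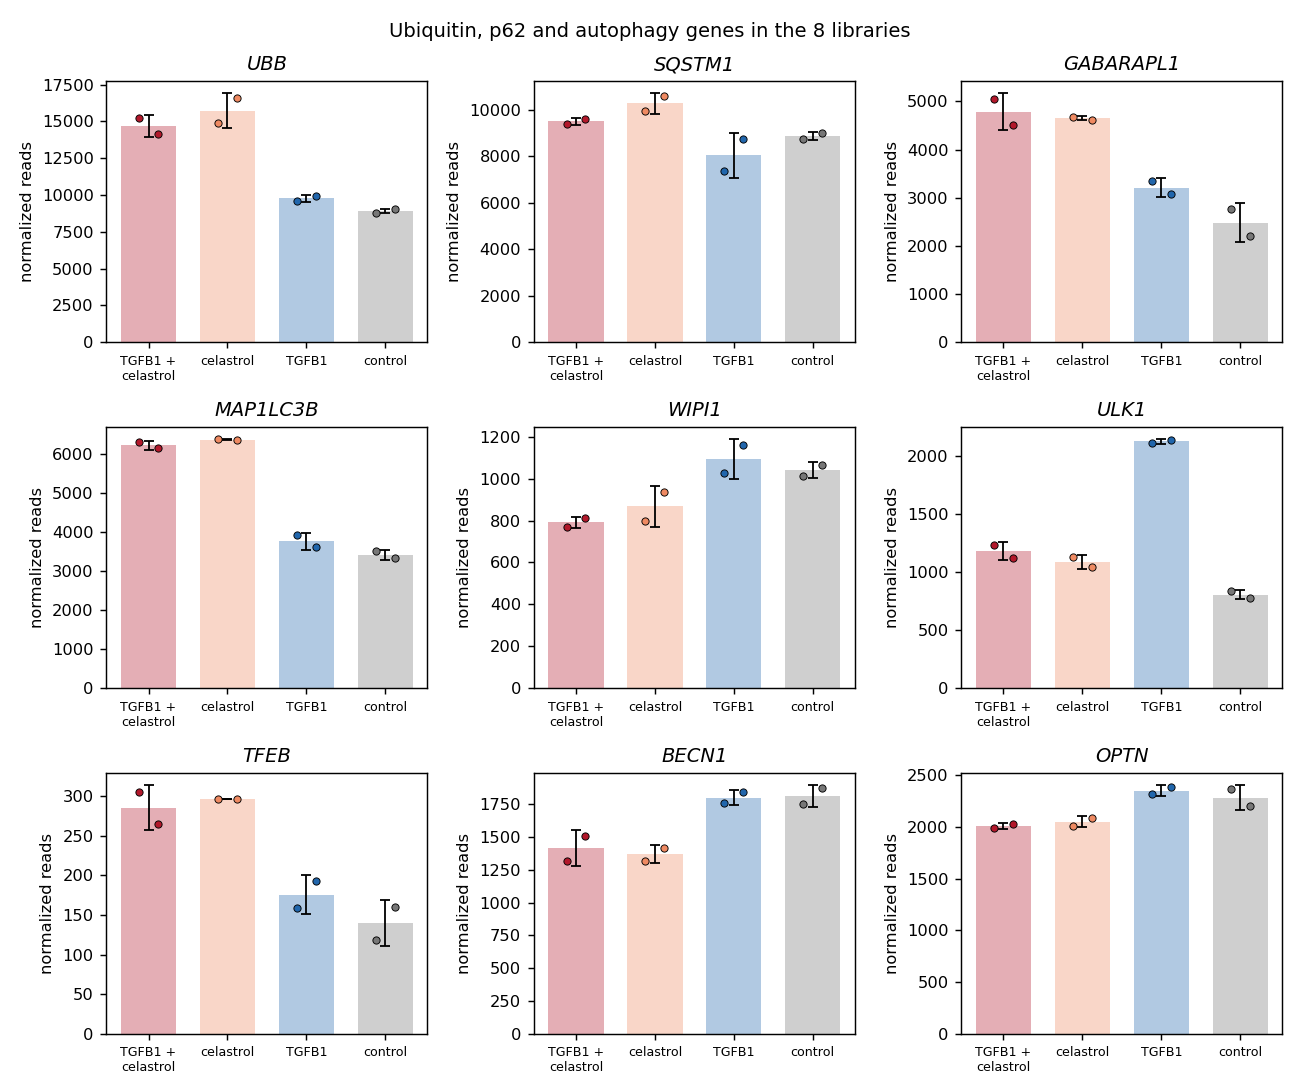
Normalized reads of the 9 genes (vertical axes) in the 4 groups (horizontal axes). Bars are means, points are the 2 libraries and error bars are the SD; UBB, GABARAPL1, MAP1LC3B and TFEB are high in both celastrol groups, and ULK1 is highest in TGFB1 at 2114 and 2141.

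UBB, a polyubiquitin gene whose product is cut into single ubiquitin molecules, lies at chr17:16380798-16382745 on the plus strand of hg38. It had 15217 and 14174 normalized reads in TGFB1 with celastrol and 14903 and 16555 in celastrol, against 9615 and 9908 in TGFB1 and 8798 and 9029.8 in control. The 4 celastrol libraries were all above the other 4, the celastrol groups overlapped each other, and TGFB1 lay just above control. UBB rose by 0.59 ± 0.067 (SE, adjusted p = 8.78e-05) on the log2 scale with TGFB1 present, a change of 1.5-fold (95% interval 1.35 to 1.67). Without TGFB1 it rose by 0.82 ± 0.067 (SE, adjusted p = 2.04e-05), 1.76-fold (95% interval 1.58 to 1.96). Exons of UBB overlap those of an antisense gene, AC093484.3, over 28.5% of their bases, and 20.4% of its 75-base windows also occur in another gene (that one, or the pseudogenes UBBP4 and UBBP1), so part of its reads could belong to them.

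SQSTM1 encodes p62, a receptor that gathers ubiquitinated cargo and also binds KEAP1, the inhibitor of NRF2. At chr5:179806398-179838078 on the plus strand, it had 9409.9 and 9615 normalized reads in TGFB1 with celastrol and 9979 and 10589.7 in celastrol, against 7364 and 8736 in TGFB1 and 8762 and 8994 in control. The differences were small next to UBB, no 2 groups overlapped, and the TGFB1 libraries stood the furthest apart. SQSTM1 rose by 0.25 ± 0.08 (SE, adjusted p = 0.0252) with TGFB1 present, 1.19-fold (95% interval 1.04 to 1.35). That call was lost when either TGFB1 with celastrol library was left out (0.26, adjusted p = 0.0849 without replicate 1, and 0.23, 0.118 without replicate 2) or TGFB1 replicate 1 was (0.12, 0.130), and with libraries centred on their median the value was -0.042. Without TGFB1 the celastrol difference of 0.21 ± 0.08 (SE, adjusted p = 0.0514) missed the threshold, though it passed without TGFB1 replicate 1 (adjusted p = 0.00918) or replicate 2 (0.00924), which enter only the estimate of spread. Its exons share 45.5% of their bases with MRNIP on the other strand, which had 139 to 299 normalized reads.

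OPTN, optineurin, is a second receptor that carries ubiquitinated cargo, damaged mitochondria included, to ATG8 proteins. At chr10:13099449-13138308 on the plus strand, it had 1985 and 2031 normalized reads in TGFB1 with celastrol and 2012 and 2088 in celastrol, against 2314 and 2386 in TGFB1 and 2368 and 2197 in control. The celastrol libraries were all below the other 4. OPTN fell by 0.23 ± 0.06 on the log2 scale with TGFB1 present (SE, adjusted p = 0.00990), or 0.855-fold (95% interval 0.777 to 0.94) of the TGFB1 level. Without replicate 1 of TGFB1 with celastrol the adjusted p was 0.0526, and scaled to a common total the change was -0.069 (0.322). Celastrol against control gave -0.15 ± 0.06 (SE, adjusted p = 0.0573), and it passed with a common total (adjusted p = 0.00735) and with median centring (0.00125).

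Both ATG8 genes of the 9 were separated by celastrol. MAP1LC3B, at chr16:87383953-87404779 on the plus strand, encodes LC3B, the protein most used to mark autophagosomes, and had 6314 and 6145 normalized reads in TGFB1 with celastrol and 6377 and 6357 in celastrol, against 3921 and 3613 in TGFB1 and 3501 and 3328 in control. The 4 groups did not overlap, with the celastrol groups close together and far above the others. It rose by 0.73 ± 0.059 (SE, adjusted p = 1.42e-05) with TGFB1 present, 1.65-fold (95% interval 1.51 to 1.82), and by 0.90 ± 0.059 (SE, adjusted p = 6.17e-06) without, 1.86-fold (95% interval 1.7 to 2.05). Of its 75-base windows 4.5% also occur in another gene, nearly all of them in the close copy MAP1LC3B2.

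GABARAPL1, at chr12:10212458-10223128 on the plus strand, belongs to the GABARAP branch of the ATG8 family. It had 5052 and 4511 normalized reads in TGFB1 with celastrol and 4683 and 4621 in celastrol, against 3347 and 3067 in TGFB1 and 2765 and 2195 in control. The celastrol groups overlapped, and TGFB1 lay between them and control without overlap. GABARAPL1 rose by 0.58 ± 0.11 (SE, adjusted p = 0.00152) with TGFB1 present, 1.49-fold (95% interval 1.26 to 1.76), and by 0.92 ± 0.11 (SE, adjusted p = 0.000135) without, 1.89-fold (95% interval 1.59 to 2.24). With TGFB1 against control it rose by 0.38 ± 0.11 (SE, adjusted p = 0.0344), a call that did not hold up. Leaving out any library but control replicate 1 gave an adjusted p between 0.0517 (TGFB1 replicate 2) and 0.182 (control replicate 2, log2 change 0.21), and scaling to a common total gave 0.15 (0.306).

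ULK1, the kinase that starts autophagy under the control of mTORC1 and AMPK, was the gene with the largest TGFB1 change of the 9. At chr12:131894622-131923150 on the plus strand, it had 1235 and 1124 normalized reads in TGFB1 with celastrol and 1128 and 1042 in celastrol, against 2114 and 2141 in TGFB1 and 833 and 779 in control. TGFB1 stood alone at the top, control alone at the bottom, and the celastrol groups overlapped each other between them. ULK1 rose by 1.40 ± 0.075 (SE, adjusted p = 7.71e-06) with TGFB1 against control, 2.64-fold (95% interval 2.34 to 2.97). Added to TGFB1, celastrol went with a fall of 0.85 ± 0.075 (SE, adjusted p = 2.2e-05), to 0.554-fold (95% interval 0.492 to 0.624) of the TGFB1 level. Celastrol against control gave a rise of 0.43 ± 0.075 (SE, adjusted p = 0.00139), 1.34-fold (95% interval 1.19 to 1.51). The difference between these celastrol effects, the interaction, was -1.28 ± 0.11 (SE, adjusted p = 0.000235), and ULK1 was the only one of the 9 called there, where 11.3% of all genes were called, 4.36% higher and 6.89% lower. It passed in all 16 alternatives, from -1.40 with median centring to -1.04 with a common total, and none of its 75-base windows occurs in another gene.

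**Figure D2:**
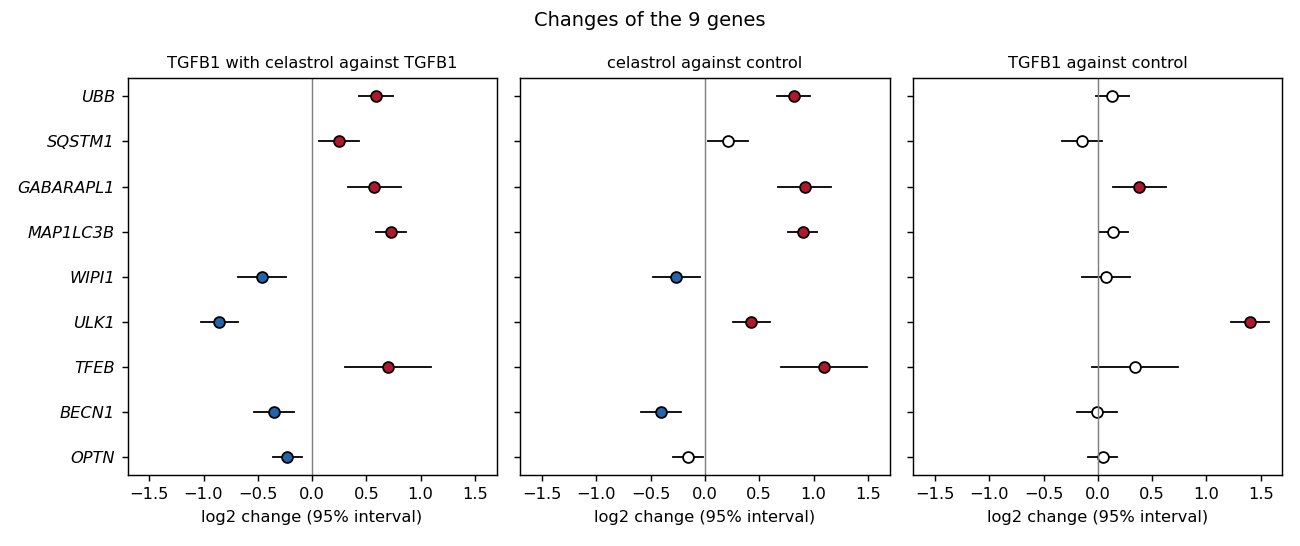
Log2 changes of the 9 genes (horizontal axes, with 95% intervals) in TGFB1 with celastrol against TGFB1, celastrol against control and TGFB1 against control. Red points were called higher, blue points lower and white points not called; ULK1 is at -0.85, 0.43 and 1.40 in the panels from left to right.

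BECN1 and WIPI1 act next to each other, BECN1 in the complex that makes the lipid PI3P and WIPI1 as a protein that binds it. BECN1, at chr17:42810134-42833350 on the minus strand, had 1318 and 1509.9 normalized reads in TGFB1 with celastrol and 1320.2 and 1417 in celastrol, against 1761 and 1839.9 in TGFB1 and 1751 and 1871 in control. Both celastrol groups lay below the other groups and overlapped each other, as did TGFB1 and control. BECN1 fell by 0.35 ± 0.081 with TGFB1 present (SE, adjusted p = 0.00482) and by 0.40 ± 0.081 without (SE, adjusted p = 0.00283). Scaled to a common total the first became -0.19 (0.0688). Its exons share 37.2% of their bases with CNTD1 on the other strand, which had 25.2 and 17.6 normalized reads in TGFB1 with celastrol and 27.8 and 17.0 in celastrol, against 0 and 2.46 in TGFB1 and 0 and 0.60 in control.

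WIPI1, at chr17:68420948-68457513 on the minus strand, had 772 and 811 normalized reads in TGFB1 with celastrol and 800.0 and 939 in celastrol, against 1027 and 1162 in TGFB1 and 1013 and 1067 in control. The celastrol libraries were below the others, the nearest being celastrol replicate 2. WIPI1 fell by 0.46 ± 0.10 with TGFB1 present (SE, adjusted p = 0.00281), to 0.725-fold (95% interval 0.622 to 0.844) of the TGFB1 level. The fall of 0.26 ± 0.10 without TGFB1 (SE, adjusted p = 0.0460) was close to the threshold and was lost without celastrol replicate 1 (-0.15, 0.267), control replicate 1 (0.0925), control replicate 2 (0.189), or either TGFB1 with celastrol library (0.0732 and 0.0735). ARSG, on the other strand at 74.9 to 118 normalized reads, shares 28.5% of the exon bases of WIPI1.

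TFEB, the transcription factor, had the lowest level of the 9 per kilobase of exon. At chr6:41683978-41736259 on the minus strand, it had 306 and 265 normalized reads in TGFB1 with celastrol and 297 and 297 in celastrol, against 158 and 193 in TGFB1 and 119 and 160.2 in control. All celastrol libraries were above all others, while TGFB1 and control overlapped. TFEB rose by 1.10 ± 0.17 (SE, adjusted p = 0.000753) without TGFB1, 2.14-fold (95% interval 1.63 to 2.82), the largest rise of the 9 in that comparison. With TGFB1 present it rose by 0.70 ± 0.17 (SE, adjusted p = 0.00694), 1.63-fold (95% interval 1.24 to 2.14), a call lost without replicate 1 of TGFB1 with celastrol (0.60, 0.0632) and with median centring (0.41, 0.0622). No 75-base window of TFEB occurs in another gene.

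TGFB1 with celastrol against celastrol asks whether TGFB1 made a difference once celastrol was present. By limma 0 of the 9 genes were called, and 0 had an unadjusted p under 0.05, with 2 genes or 0.00875% called over the whole table, where 868 genes had an unadjusted p under 0.05. The 95% intervals of the 9 log2 changes lay within -0.46 and 0.34, both from TFEB. For ULK1 the change was 0.12 (95% interval -0.052 to 0.29), beside 1.40 (1.23 to 1.57) for TGFB1 without celastrol. In the interaction, the log2 values of the 8 genes not called ran from -0.40 in TFEB to 0.052 in BECN1. GABARAPL1, at -0.34 ± 0.15 (SE, adjusted p = 0.198), passed there without control replicate 1 (-0.51, 0.0499), and UBB, at -0.23 ± 0.10 (SE, adjusted p = 0.172), passed with median centring (0.0488). For the other genes TGFB1 against control gave 0.13 for UBB, 0.14 for MAP1LC3B, 0.34 for TFEB, -0.15 for SQSTM1, 0.071 for WIPI1, 0.043 for OPTN and -0.008 for BECN1, with adjusted p between 0.204 and 0.996 apart from 0.125 for MAP1LC3B. SQSTM1 passed there, lower, without TGFB1 replicate 2 (-0.27, 0.0228).

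Per kilobase of exon, which allows levels of different genes to be compared, UBB led in TGFB1 with celastrol at 9088 normalized reads, followed by SQSTM1 at 2737, MAP1LC3B at 2066 and GABARAPL1 at 1599.6. BECN1 (662), OPTN (496), WIPI1 (419), ULK1 (222) and TFEB (63.9) came after. In control the per-kilobase order was UBB (5513), SQSTM1 (2554), MAP1LC3B (1132), BECN1 (848), GABARAPL1 (829.7), OPTN (563), WIPI1 (550.3), ULK1 (152) and TFEB (31.2). GABARAPL1 and BECN1 were close together in control and lay well apart with celastrol.

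The smaller changes depended on the scale. The TGFB1 libraries had larger totals (29888643 and 30237744 normalized reads) than the other 6 (25503505 to 27389165). In TGFB1 with celastrol against TGFB1 the median log2 change of all genes was 0.12 as normalized by the authors, 0.28 with a common total and -0.17 with median centring. The 9 genes then split into 5 higher and 2 lower with a common total and 3 higher and 4 lower with median centring, beside 5 and 4. UBB was 0.75 and 0.30 under these scalings, GABARAPL1 0.73 and 0.29, MAP1LC3B 0.88 and 0.44, WIPI1 -0.31 and -0.75, and ULK1 -0.70 and -1.14, each called both ways. In celastrol against control the medians of all genes were 0.083, 0.005 and -0.087, and the 9 split into 5 higher and 3 lower with a common total and 5 higher and 3 lower with median centring. In TGFB1 against control the medians were 0.00, -0.21 and 0.12, with 1 of the 9 higher and 2 lower with a common total and 4 higher with median centring. The direction of UBB, MAP1LC3B, WIPI1 and OPTN in that comparison turned with a common total, and OPTN and SQSTM1 were then called lower (-0.18 and -0.37), while UBB (0.25) and MAP1LC3B (0.26) were called higher with median centring.

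The genes with the most similar pattern were found by Euclidean distance over the 8 libraries, on log2 values centred per gene, among 12144 protein-coding genes with a mean of at least 50. They are a description, since all values share the same libraries and scaling. Nearest to UBB were CEBPG (distance 0.124), SLC13A3 (0.141) and ATP2C1 (0.150), and nearest to SQSTM1 were AIFM2 (0.105), DXO (0.111) and SSTR1 (0.112). For GABARAPL1 they were EIF5 (0.195), PYGO1 (0.214) and BEND3 (0.217), and for MAP1LC3B NRIP1 (0.085), CWC22 (0.089) and PNRC2 (0.105). None of the 9 was among the 3 nearest of another. ULK1 had FOXP4 (0.233), LIMS1 (0.262) and SIRPA (0.282) nearest, and TFEB had PCDH9 (0.267), BAIAP2 (0.304) and JARID2 (0.309). BECN1 was closest to ZNF706 (0.078), ZNF25 (0.091) and TUBGCP2 (0.121), and WIPI1 to IMPDH1 (0.079), RNF123 (0.117) and PPM1F (0.127).

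The 9 genes were set beside 123 others of the same routes in 14 lists by role, of which 122 were tested. Over these lists 39 were higher and 33 lower in TGFB1 with celastrol against TGFB1, or 32.0% and 27.0%, near the 37.5% and 25.9% of all genes, with a median log2 change of 0.03 beside 0.12. In celastrol against control 46 were higher and 21 lower (37.7% and 17.2%, against 33.8% and 21.3% of all genes), and in TGFB1 against control 22 and 12 (18.0% and 9.8%, against 12.8% and 10.6%). The median log2 changes of the lists together were 0.09 and 0.07 there, beside 0.083 and 0.00 over all genes. These shares of all genes also stand beside the counts of single lists below. The splits of the lists together moved with the scale in the same direction as those of all genes. In the first comparison they moved by more, in proportion, than those of all genes. The first became 62 higher and 15 lower with a common total (9809 and 4183 of all genes) and 19 and 65 with median centring (6956 and 9094), against 8564 and 5933 of all genes as normalized by the authors. The second became 40 and 31 (7286 and 6068 of all genes) and 32 and 42 (6751 and 7470), against 7737 and 4868. That of TGFB1 against control became 8 and 41 (1417 and 5399) and 48 and 6 (4778 and 1775), against 2937 and 2427. Of the 72 called in the first comparison 31 were called in every setting tried, as were 35 of 67 in the second and 8 of 34 in TGFB1 against control. Of the genes described below, ATG4C, ATG4D, BAG3, CTSB, DDIT4, FNIP1, FOXO1, FOXO3, HSPB8, MAP1LC3B2, MITF, MTOR, NEU1, NFE2L2, NPLOC4, NRBF2, PRKAA2, RRAGC, SESN2, STUB1, TFEC, TOLLIP, TRAF6, UBA6, UBQLN2, USP14, VAMP8, VCP and VPS18 were called in every setting in the first comparison, ATG101, ATG4A, BAG3, DDIT4, EPG5, FNIP1, FOXO1, FOXO3, HSPA8, HSPB8, MTOR, NEU1, NFE2L2, NRBF2, RAB7A, RB1CC1, RRAGC, SESN2, STUB1, STX17, TAX1BP1, TFE3, TFEC, UBQLN2, UCHL3, USP9X, VAMP8 and VPS18 in the second, and ATG101, BAG3, EPG5, FOXO3, HSPB8, MITF, NRBF2 and USP7 in TGFB1 against control.

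**Figure D3:**
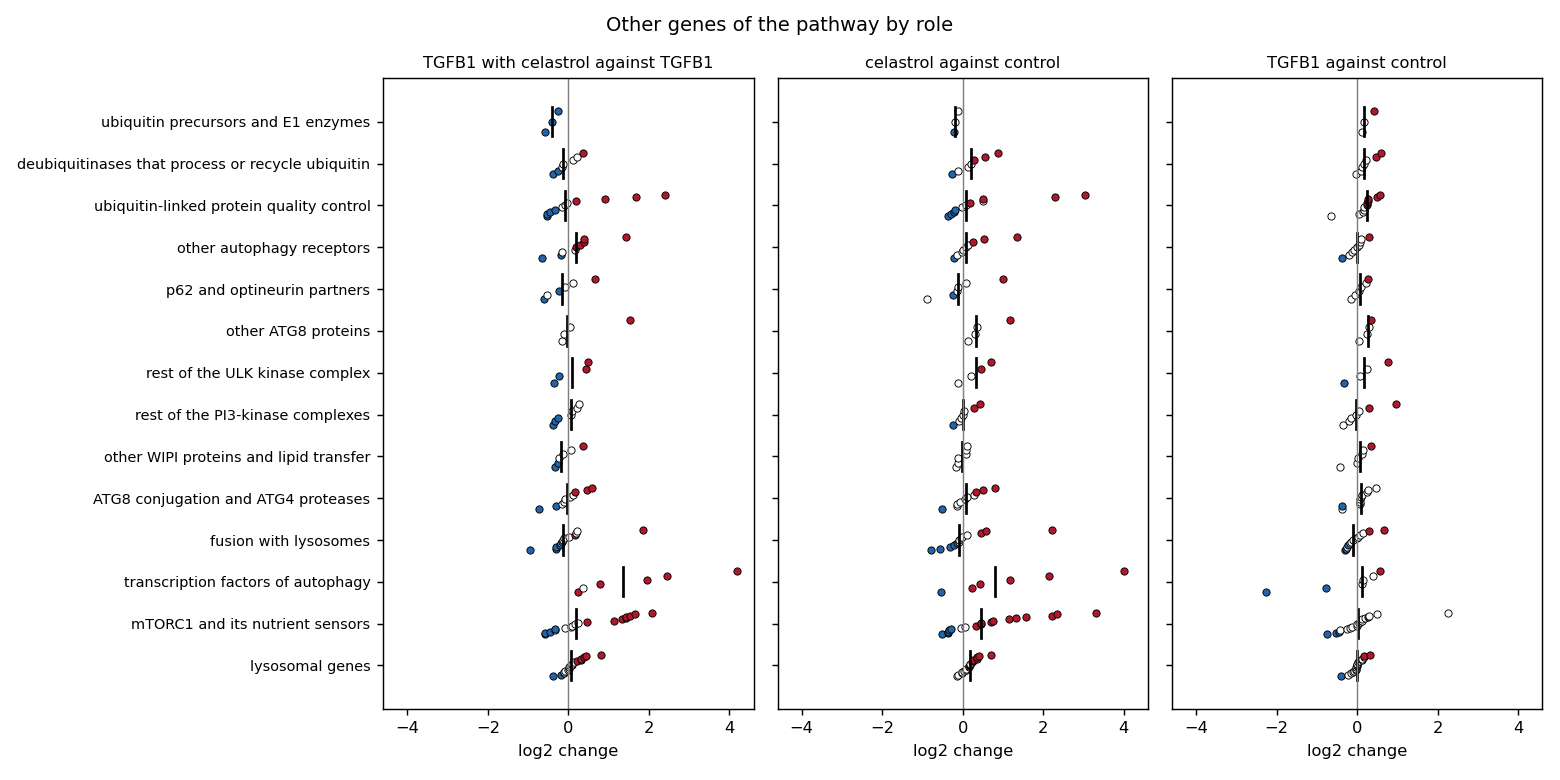
Log2 changes (horizontal axes) of 122 other genes of ubiquitin and autophagy routes, in 14 lists (vertical axis) and 3 comparisons. Red points were called higher, blue points lower and white points not called, and black bars are list medians; the list of transcription factors has the highest median, 1.36 in TGFB1 with celastrol against TGFB1.

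Among the other genes of ubiquitin supply, RPS27A, which encodes ubiquitin fused to a ribosomal protein, had 1077 and 1379.7 normalized reads in TGFB1 with celastrol and 1245 and 1239 in celastrol, against 1611 and 1595 in TGFB1 and 1351 and 1486 in control. The celastrol libraries overlapped each other, and replicate 2 of TGFB1 with celastrol lay above the lower control library. RPS27A fell by 0.40 ± 0.11 with TGFB1 present (SE, adjusted p = 0.0116) and had -0.19 (adjusted p = 0.169) without, whereas UBB rose in both. The RPS27A fall was not called with a common total, without the variance trend or without replicate 1 of TGFB1 with celastrol. The E1 enzymes UBA1 and UBA6, which load ubiquitin for transfer, fell by 0.26 and 0.59 in the first comparison, and UBA6 was called in every setting while UBA1 was not called with a common total. In protein quality control linked to ubiquitin, 4 of 11 were higher and 4 lower in each celastrol comparison. BAG3, a co-chaperone that sends clients to p62 and autophagy, rose by 2.41 ± 0.09 (SE, adjusted p = 3.9e-07) and 3.04 ± 0.09 (SE, adjusted p = 1.61e-07), and its partner HSPB8 by 1.68 ± 0.089 (SE, adjusted p = 1.63e-06) and 2.28 ± 0.089 (SE, adjusted p = 5.2e-07), while the segregase VCP fell by 0.53, its cofactor NPLOC4 by 0.53, the ligase STUB1 by 0.34 and the shuttle UBQLN2 by 0.45 in the first comparison, all called in every setting. The other higher genes there were HSPA8 (0.19, lost in 8 settings) and SYNPO2 (0.91, lost in 3). Of 7 deubiquitinases USP9X was higher (0.36), and USP14 (-0.38) and USP7 (-0.25) lower, with USP14 called in every setting. With celastrol against control OTULIN (0.28), UCHL3 (0.88) and USP9X (0.54) were higher and USP14 lower (-0.28), and UCHL3 and USP9X were called in every setting. UCHL3 shares 51.1% of its exon bases with AL137782.1 on the same strand, so part of its reads could belong to that gene. On the other strand, STUB1 shares 42.6% with JMJD8, and PINK1, described below, shares 58.1% with PINK1-AS.

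Of 9 other receptors 5 were higher and 2 lower in TGFB1 with celastrol against TGFB1, of which 1, TOLLIP, was called in every setting. The higher ones were NBR1, TAX1BP1 (0.39), BNIP3 (0.28), CALCOCO2 (0.19) and RETREG1, and the other lower one was NCOA4 (-0.18), the receptor for ferritin. All 5 rises were lost with median centring, and RETREG1 was near the level that 3 reads are worth, at 10.5 and 13.2 normalized reads in TGFB1 with celastrol and 2.83 and 4.92 in TGFB1. NBR1, a receptor that works with p62, had 4104 and 4444 normalized reads in TGFB1 with celastrol and 4195 and 4361 in celastrol, against 3153 and 3385 in TGFB1 and 4138 and 4319.9 in control. It fell by 0.37 with TGFB1 against control (adjusted p = 0.00387) and rose by 0.39 with celastrol added to TGFB1 (0.000788), and the rise was not called with median centring (0.10) nor the fall when only the compared libraries were fitted. TOLLIP, which binds ubiquitin and LC3, fell by 0.66 (5.67e-05). Among partners of p62 and optineurin, NFE2L2, which encodes the NRF2 that KEAP1 holds back, rose by 0.65 ± 0.052 (SE, adjusted p = 1.22e-05) and 1.00 ± 0.052 (SE, adjusted p = 1.98e-06) in the celastrol comparisons, KEAP1 had -0.078 (adjusted p = 0.415) and 0.068 (adjusted p = 0.497), and TRAF6, a ubiquitin ligase that binds p62, fell by 0.61 in the first (0.000207), as did the kinase PINK1 by 0.23 (0.0289, lost in 5 settings). Of 4 other ATG8 genes tested 1 was higher in that comparison, MAP1LC3B2, the near copy of MAP1LC3B, with a mean of 70.1 ± 3.76 normalized reads in TGFB1 with celastrol and 24.0 ± 7.06 in TGFB1 (SD, n = 2 each). MAP1LC3B2 was also higher in celastrol against control (1.18), but not without celastrol replicate 2 or control replicate 2. Of the 75-base windows of MAP1LC3B2, 13.4% also occur in the far more abundant MAP1LC3B, so part of its reads could belong to that gene. GABARAP (0.03, adjusted p = 0.874), GABARAPL2 (-0.16, 0.124) and MAP1LC3A (-0.10, 0.732) were not called in TGFB1 with celastrol against TGFB1.

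Of the other subunits around ULK1 and BECN1, ATG101 and NRBF2 had interactions of the same sign as ULK1. ATG101, a subunit of the ULK1 complex, had 1416 and 1504 normalized reads in TGFB1 with celastrol and 1533 and 1756 in celastrol, against 1629.9 and 1826 in TGFB1 and 973 and 1061 in control. NRBF2, a subunit of the beclin 1 complex, had 630.1 and 642 in TGFB1 with celastrol and 557 and 597 in celastrol, against 863 and 804 in TGFB1 and 424 and 429 in control. NRBF2 had the order of group means seen in ULK1. For ATG101 the mean of celastrol lay above that of TGFB1 with celastrol, and the libraries of celastrol and TGFB1 overlapped. NRBF2 rose by 0.96 ± 0.078 (SE, adjusted p = 6.67e-05) with TGFB1 and by 0.43 with celastrol against control (0.00161), and fell by 0.39 with celastrol added to TGFB1 (0.00235). ATG101 rose by 0.76 (0.000541) and 0.69 (0.000266), and its change of -0.24 in the last comparison (0.0443) was lost in 8 of 17 settings. Their interactions were -0.82 ± 0.11 (SE, adjusted p = 0.00228) and -0.93 ± 0.13 (SE, adjusted p = 0.00256), both called in every setting. ATG101 shares 42.7% of its exon bases with an antisense gene, AC025259.1. The rest of the ULK complex split, with ULK2 (0.48) and RB1CC1 (0.43) higher and ATG13 (-0.36) lower in TGFB1 with celastrol against TGFB1. The first pair was not called with median centring, nor ATG13 with a common total or without replicate 1 of TGFB1 with celastrol. Of 7 other PI3-kinase subunits, PIK3C3 (-0.27), the lipid kinase itself, and its regulator AMBRA1 (-0.32) were lower beside NRBF2, and neither was called with a common total. Among 6 WIPI and lipid transfer genes ATG2A was higher (0.35, lost in 8 settings) and WDR45B (-0.34, lost with a common total) and WIPI2 (-0.26, lost in 6) lower, and 0 of the 6 were called in celastrol against control, where 0 had an unadjusted p under 0.05.

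**Figure D4:**
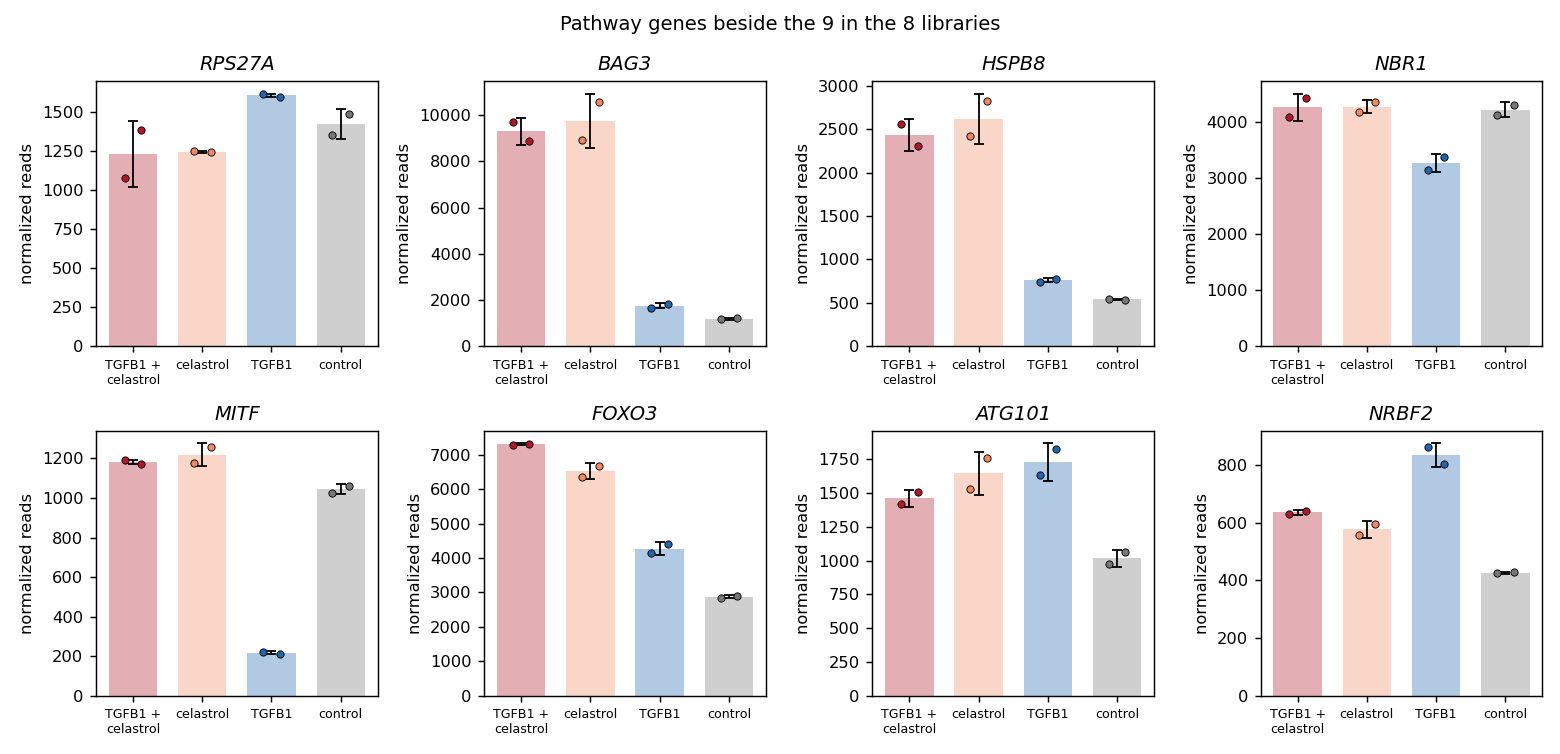
Normalized reads of 8 other genes of the pathway (vertical axes) in the 4 groups (horizontal axes), chosen after their values were seen. Bars are means, points are the 2 libraries and error bars the SD; MITF is low in TGFB1 alone, at 222 and 211, and BAG3 and HSPB8 are high in both celastrol groups.

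The list of autophagy transcription factors had 5 of 6 genes higher in TGFB1 with celastrol against TGFB1, with a median log2 change of 1.36, and 5 higher and 1 lower in celastrol against control. MITF, a relative of TFEB that binds the same element, had 1189.7 and 1174 normalized reads in TGFB1 with celastrol and 1179 and 1259.5 in celastrol, against 222 and 211 in TGFB1 and 1026 and 1063 in control. The TGFB1 libraries were far below the other 6. MITF fell by 2.26 ± 0.072 with TGFB1 against control (SE, adjusted p = 5.6e-07) and rose by 2.44 ± 0.072 (SE, adjusted p = 1.42e-07) with celastrol added, with an interaction of 2.22 ± 0.10 (SE, adjusted p = 1.52e-05), opposite in sign to that of ULK1. In celastrol against control MITF had 0.22 (0.0275), lost in 6 settings. FOXO1, a factor that turns on autophagy genes, rose by 1.95 (0.000131) and 2.14 (0.000103) in the celastrol comparisons, and FOXO3 by 0.77 (7.73e-06) and 1.18 (1.27e-06). FOXO3 shares 21.7% of its 75-base windows with other genes, mostly its copy FOXO3B. TFE3 had 0.24 (0.0186), which turned to -0.053 with median centring, in the first comparison and 0.43 (0.00104). TFEC had 39.3 and 30.8 normalized reads in TGFB1 with celastrol and 19.3 and 27.9 in celastrol, against 2.83 and 0 in TGFB1 and 1.25 and 0 in control, where it was at or under the level that 3 reads are worth. ZKSCAN3, a repressor of autophagy genes, was at 0.36 (adjusted p = 0.0839) in the first comparison and lower in the second (-0.54, 0.0224, not called without celastrol replicate 2, without either control library or with only the compared libraries fitted).

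Upstream, 8 of 18 genes of mTORC1 and its nutrient sensors were higher and 4 lower in TGFB1 with celastrol against TGFB1, and 11 and 5 in celastrol against control. The first counts are 44.4% and 22.2%, near the 37.5% and 25.9% of all genes. The second are 61.1% and 27.8%, beside 33.8% and 21.3% of all genes. The same shares of all genes stand beside the other counts of this paragraph. Of the inhibitors of mTORC1, DDIT4 rose by 2.06 (6.85e-07) and 2.20 (5.94e-07) and SESN2 by 1.44 (8.6e-07) and 1.58 (6.75e-07), although DDIT4 shares 48.5% of its exon bases with DDIT4-AS1. SESN3 rose by 1.44 (0.00767, not called without replicate 1 of TGFB1 with celastrol) and 1.15 (0.0250, lost in 7 settings). Other inhibitors went the other way: TSC2 fell by 0.32 (0.00300, not called with a common total) and 0.29 (0.00630, not called without control replicate 2), and SESN1 fell by 0.35 in celastrol against control (0.0287, lost in 4 settings). PRKAA2, a catalytic subunit of AMPK, rose by 1.52 (8.34e-05) and 0.70 (0.00784, not called without celastrol replicate 2 or control replicate 1). FNIP1, the partner of folliculin at the lysosome, rose by 1.34 (2.66e-06) and 1.32 (3.68e-06), while the kinase MTOR itself fell by 0.59 (2.55e-05) and 0.52 (6.41e-05). The GTPase genes RRAGC and RHEB of this list did not fall with MTOR. RRAGC rose by 1.12 and 0.75, called in every setting of both comparisons. RHEB had 0.084 in the first, not called, and rose by 0.325 in the second, not called there with median centring. At the other end of the route, 6 of 18 lysosomal genes were higher and 2 lower in the first comparison and 8 were higher in the second, with medians of 0.06 and 0.17. NEU1, a lysosomal sialidase, rose by 0.81 (3.47e-05) and 0.71 (9.46e-05), and the protease CTSB had -0.38 (0.00125) and -0.014 (0.879). CTSB was called lower in the first in every setting, as was NEU1 higher in both. Of 13 genes for fusion with lysosomes 2 were higher and 5 lower, and then 3 and 5, among them the tethering subunit VPS18 at -0.94 (2.34e-05) and -0.80 (7.44e-05). Of 10 genes that attach ATG8 proteins to membranes or cut them free, 3 were higher and 2 lower, and then 3 and 1, such as the protease gene ATG4D at -0.73 (0.00395) in the first and ATG4A at 0.79 (0.000122) in the second. The higher ones in the first were ATG4A (0.47), ATG4C (0.58) and ATG5 (0.17), and ATG12 (-0.32) was lower beside ATG4D, with ATG4C and ATG4D called in every setting. The ATG5 call was lost in 13 of 17 settings, and its value was -0.12 with median centring. ATG4A was not called with median centring, nor ATG12 with a common total. In the fusion list the higher genes were RAB7A (0.17, lost in 8 settings), a small GTPase of late endosomes, and the SNARE gene VAMP8. The lower genes beside VPS18 were EPG5 (-0.16, lost in 9), SNAP29 (-0.31, lost in 3), STX17 (-0.30) and VPS41 (-0.22). STX17 and VPS41 were not called with a common total, while VAMP8 and VPS18 were called in every setting. VAMP8 was low, at 13.3 and 6.60 normalized reads in TGFB1 with celastrol and 13.1 and 17.0 in celastrol, against 1.41 and 2.46 in TGFB1 and 2.50 and 2.40 in control, and its TGFB1 libraries were under the level that 3 reads are worth.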

How the data were processed

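RNA was measured in 8 libraries of CCD-1077Sk fibroblasts. TRIzol extracts went into a VAHTS kit for total RNA, per the labels' protocols. The authors' table holds a normalized signal per gene and library. STAR 2.7.3a, Partek 10.0.22, DESeq2 and build hg38 appear in the submitters' processing notes, with no role or order, and no source used here states the annotation or the use of strand. The deposited signal has the form of estimated reads over a size factor: the median ratio to the geometric mean was 1.0077 in every library, and 73.6% to 76.0% of values, within 0.02 reads, were a whole number of reads, so count models were not used.

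The scale of analysis was log2(value + 1), which understates changes of low genes, for 22866 genes with at least 10 in at least 2 libraries. limma 3.58.1 (R 4.3.3) with a variance trend fitted 1 mean per group to all 8 libraries (4 residual degrees of freedom). Tests were two-sided in 5 comparisons, with Benjamini-Hochberg adjustment over all genes in each and calls at 0.05. Adjusted p-values and log2 changes are from this fit and scale, except where an alternative is named. Those are from limma refitted with that alternative. Alternatives were pseudocounts of 0.5 and 10, no filter or a filter of 50, a common total, median centring, no trend, a replicate block, only the 4 compared libraries, and leaving out each library.

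The 9 genes and the lists were chosen with earlier results of these data known. Named pathway genes include up to 4 per list with the largest called change in TGFB1 with celastrol against TGFB1 and a mean of at least 50. Genes that make up counts of 5 or fewer were added, but not all of them are named. RPTOR, RRAGA and HEXA, for example, were called lower in that comparison and are left out above. Some were chosen after their values were seen: KEAP1, GABARAP, GABARAPL2, MAP1LC3A, MTOR, FNIP1, RRAGC, RHEB, ZKSCAN3 and TFEC. Replicate numbers are from titles (celastrol replicate 2 is numbered 3 in another label) and were not taken to pair libraries. Exon overlaps use GENCODE 29, positions of genes are those of the deposited table on hg38, and promoters are from RefSeq (GRCh38.p14). The script was tested on simulated data. Protein sequences were not used here, and not every gene of these routes is reported here.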

Additional observations from a re-analysis of the deposited data

Results flagged for a closer look

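The celastrol difference of ULK1 depended on TGFB1. It was -0.85 with TGFB1 and 0.43 without, and the test of the difference itself, the interaction, gave -1.28 on the log2 scale (adjusted p = 0.000235). Both libraries of TGFB1 with celastrol were below both of TGFB1, and both of celastrol were above both of control.

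The same test passed for 17 of the 122 other genes of the pathway, where 11.3% of all genes passed. The signed celastrol difference with TGFB1, less that without, was above 0 for MITF (2.22), ZKSCAN3 (0.90) and NBR1 (0.37). It was below 0 for ATG101 (-0.93), NRBF2 (-0.82), EPG5 (-0.72), UCHL3 (-0.66), BAG3 (-0.63), HSPB8 (-0.60), TOLLIP (-0.43), FOXO3 (-0.41), USP7 (-0.39), CTSB (-0.37), NFE2L2 (-0.35), PIK3C3 (-0.31), VCP (-0.30) and UBQLN1 (-0.27). Of these 17, ATG101, NRBF2, EPG5 and MITF passed in all 16 alternatives. For TOLLIP (-0.66 with TGFB1, -0.23 without), VCP (-0.53, -0.22) and CTSB (-0.38, -0.014) the difference was negative in both settings and larger in size with TGFB1. The split of 3 above and 14 below 0 was 17 and 3 with a common total and 1 and 28 with median centring, and that of all genes, 997 and 1576, was 2474 and 801 with a common total and 784 and 2748 with median centring.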

How the results depend on the processing

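Of 756 values recomputed for 45 results under 17 alternatives, 689 kept their direction and side of the threshold, and 23 turned in sign, of which 22 were not called under the alternative; the cause was not tested. The total counts of the 9 genes called, both directions together, in both celastrol comparisons and in TGFB1 with celastrol against celastrol stayed within 1.5 times, while the lower calls in TGFB1 with celastrol against TGFB1 were 2 with a common total beside 4, and the higher calls 3 with median centring beside 5. TGFB1 against control called 2, but 4 with median centring, 1 without the variance trend, 1 with the 4 compared libraries alone, and 1 to 2 leaving out libraries. The interaction called 1, but 2 with median centring, 2 with the replicate block and 1 to 2 leaving out libraries. With the block GABARAPL1 passed there (0.0466) and SQSTM1 (0.0121) and OPTN (0.0452) in celastrol against control, and it changed no other call of the 9. Replicate numbers gave correlations of deviations of 0.05 to 0.08 over 22866 genes, all positive. Single genes did follow the numbers. DCN was higher in replicate 2 than in replicate 1 of every group. It went from 2727 to 4006 normalized reads in TGFB1 with celastrol and from 2824 to 3941 in control. FOXO1 was lower in replicate 2 of every group. With the block, TGFB1 against control called 3590 of all genes higher and 2952 lower, beside 2937 and 2427. Whether the numbers mark a batch was not tested. Sign changes with a common total were, in TGFB1 against control, UBB -0.095, MAP1LC3B -0.085, WIPI1 -0.15 and OPTN -0.18 (called), and in the interaction UBB 0.0097, MAP1LC3B 0.065, WIPI1 0.036 and OPTN 0.16. With median centring they were SQSTM1 -0.042 in TGFB1 with celastrol against TGFB1, BECN1 0.11 in TGFB1 against control, and SQSTM1 -0.083 and BECN1 -0.065 in the interaction. Leaving out libraries gave ranges that crossed 0 for, in TGFB1 against control, WIPI1 (-0.018 to 0.16), BECN1 (-0.056 to 0.04) and OPTN (-0.011 to 0.10), in TGFB1 with celastrol against celastrol, GABARAPL1 (-0.045 to 0.12), TFEB (-0.16 to 0.042) and BECN1 (-0.054 to 0.14), and in the interaction SQSTM1 (-0.089 to 0.16) and BECN1 (-0.046 to 0.15). A group left with 1 library is assumed to vary like the others. Pathway genes called in TGFB1 against control were 34, 54 with median centring and 14 without the trend, and in the interaction 17, 29 with the replicate block or median centring and 4 without the trend. With 2 libraries a group, small changes such as those of SQSTM1, OPTN and WIPI1 sit near the limit of what can be called.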
